A study of Homo sapiens with 4 samples.

Results

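Ribosomal protein pseudogenes that carried signal were taken from poly(A)-selected, paired-end RNA sequencing of HCT116 and RKO, a pair of established human colorectal cancer cell lines. A gene entered the group when its name had the form of a numbered pseudogene of an RPL or RPS gene and its level reached 1 FPKM, a fragment count scaled by transcript length and by library size, in at least 1 library. Of 60612 genes, 1153 had such a name and 137 of these reached the threshold. RPS19BP1, a protein-coding gene for a binding partner of RPS19, was caught by the form of its name alone and has no parent here, so 136 of 1152 pseudogenes are described below. They were selected on the FPKM values of the 4 libraries, so levels are given as a description with no test.

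HCT116 and RKO were each sequenced once as AVEN wildtype cells (WT) and once with AVEN overexpression (OE), which gave 4 libraries in 4 groups. AVEN encodes an inhibitor of caspase activation. The labels do not describe the construct, its promoter or whether the OE cells are a clone or a pool, and each group rests on a single library. In FPKM, AVEN measured 1.53 (WT) and 2.96 (OE) in HCT116, and 1.34 (WT) and 4.43 (OE) in RKO, so each OE library had more of it than its WT library. Of 6 epithelial markers, 6 reached 1 FPKM in both HCT116 libraries and 3 in both RKO libraries, where CDH1, KRT19 and CLDN4 were under 0.1 FPKM. Of 5 colon markers only CDX2 reached 1 FPKM. Endothelial markers were under 0.1 FPKM in the 4 libraries, and CD68 was the only leukocyte marker at 1 FPKM, at 197 and 195 FPKM in RKO WT and OE. Of 5 fibroblast markers only COL1A1 reached 1 FPKM, at 2.59 and 2.60 FPKM in HCT116.

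Ribosomal proteins are the protein part of the small (RPS) and large (RPL) ribosomal subunits, and each is encoded in humans by a gene with introns that is transcribed at a high rate in growing cells. Their short, abundant mRNAs have often been reverse transcribed by LINE-1 machinery and inserted back into the genome, which left intronless copies known as processed pseudogenes. Most such copies have no promoter of their own and gather mutations, but young copies still carry nearly the sequence of the parent mRNA. A sequenced fragment from a parent can therefore match a copy, and the tables hold 1 value for each gene with no record of how fragments that matched several places were assigned.

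The sequences show how little separates a parent from some of its copies. RPS28P7, on chr11:82689559-82689768 (GRCh38, plus strand), had the second highest level of all copies in HCT116 and the highest in RKO and is shown because all 210 of its bases match the coding sequence of RPS28, a small subunit protein. No capital marks a difference in it.
RPS28 coding sequence: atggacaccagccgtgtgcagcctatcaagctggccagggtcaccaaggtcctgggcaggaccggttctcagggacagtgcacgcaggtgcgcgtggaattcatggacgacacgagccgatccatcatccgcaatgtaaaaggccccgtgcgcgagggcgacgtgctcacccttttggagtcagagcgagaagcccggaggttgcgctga
RPS28P7: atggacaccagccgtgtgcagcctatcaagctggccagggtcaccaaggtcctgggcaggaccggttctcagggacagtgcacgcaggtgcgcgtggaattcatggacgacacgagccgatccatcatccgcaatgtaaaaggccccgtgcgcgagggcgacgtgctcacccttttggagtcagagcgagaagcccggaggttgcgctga

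RPL10, a large subunit protein at the subunit interface, and 3 of its copies are shown because the copies had unequal levels in HCT116 and RKO. The stretch is coding bases 511 to 630, and capitals mark bases that differ from RPL10. Here and below, the stretch shown was the one without gaps that had the most differing bases over the copies shown. It therefore overstates how far these copies differ from the parent on average. RPL10P16 (chr19:12643290-12643409, minus strand) and RPL10P6 (chr2:214847311-214847430, plus strand) each differ at 3 bases, and RPL10P9 (chr5:168616862-168616981, plus strand) differs at 1.
RPL10: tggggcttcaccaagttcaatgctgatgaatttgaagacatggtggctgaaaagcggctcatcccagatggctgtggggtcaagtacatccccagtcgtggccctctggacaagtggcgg
RPL10P16: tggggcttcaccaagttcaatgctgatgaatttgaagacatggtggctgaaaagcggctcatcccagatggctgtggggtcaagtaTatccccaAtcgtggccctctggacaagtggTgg
RPL10P9: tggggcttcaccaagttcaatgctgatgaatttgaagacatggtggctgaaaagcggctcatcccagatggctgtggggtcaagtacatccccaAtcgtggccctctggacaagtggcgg
RPL10P6: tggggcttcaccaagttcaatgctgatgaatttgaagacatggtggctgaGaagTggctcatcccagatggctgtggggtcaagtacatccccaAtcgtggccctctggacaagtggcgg

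RPS26, a small subunit protein near the mRNA exit, is shown with RPS26P19, whose level differed most between OE and WT, and with RPS26P8, a copy that keeps nearly the whole parent sequence. Over coding bases 58 to 87, RPS26P19 (chr2:127846989-127847018, minus strand) differs from RPS26 at 10 of 30 bases and RPS26P8 (chr17:45608628-45608657, plus strand) at 0. RPL32P29 (chr14:49577765-49577794, minus strand), a diverged copy of the large subunit gene RPL32, differs at 6 of the first 30 coding bases.
RPS26: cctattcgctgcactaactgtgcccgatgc
RPS26P19: ccCattTgctgTaTGaactgtgGTTgTtgT
RPS26P8: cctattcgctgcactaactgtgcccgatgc
RPL32: atggccgccctcagaccccttgtgaagccc
RPL32P29: atggccATcctGagaccGctCgCgaagccc

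Copies of RPL7A and RPL12, both large subunit proteins, are shown because some of them were lower in OE. Over coding bases 307 to 426 of RPL7A, RPL7AP6 (chr14:69885715-69885834, minus strand) differs at 5 bases and RPL7AP66 (chr18:39335247-39335366, minus strand) at 7. Over coding bases 4 to 123 of RPL12, RPL12P42 (chr19:13158666-13158785, minus strand) differs at 13.
RPL7A: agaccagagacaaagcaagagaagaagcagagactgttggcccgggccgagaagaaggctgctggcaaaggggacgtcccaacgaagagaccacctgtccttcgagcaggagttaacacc
RPL7AP6: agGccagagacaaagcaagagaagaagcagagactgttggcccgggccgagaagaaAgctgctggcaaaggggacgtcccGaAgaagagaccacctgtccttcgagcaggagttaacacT
RPL7AP66: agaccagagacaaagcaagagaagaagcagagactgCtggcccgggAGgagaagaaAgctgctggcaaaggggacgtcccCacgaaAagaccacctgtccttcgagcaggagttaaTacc
RPL12: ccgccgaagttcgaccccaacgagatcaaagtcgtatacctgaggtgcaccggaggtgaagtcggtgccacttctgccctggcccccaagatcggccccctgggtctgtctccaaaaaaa
RPL12P42: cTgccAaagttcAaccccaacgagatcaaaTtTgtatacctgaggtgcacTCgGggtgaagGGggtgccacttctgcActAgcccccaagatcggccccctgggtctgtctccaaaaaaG

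Signal was spread over many families but was concentrated in a few copies. Of 74 parent genes with named pseudogenes, 48 had at least 1 copy with signal. RPL21 had 11 of 72 copies with signal, RPS26 had 9 of 33, RPL12 had 8 of 50, RPL23A had 8 of 91, RPL7 had 7 of 61, RPS3A had 7 of 53, RPL7A had 6 of 38 and RPS2 had 5 of 24. Of the 1016 pseudogenes below the threshold, 798 were listed at 0.0001 FPKM, the value the authors gave to genes without signal, in the 4 libraries. Among processed pseudogenes, 134 of 1139 ribosomal protein copies (11.8%) reached 1 FPKM, against 516 of 9428 copies of other families (5.47%) and 21.5% of all genes.

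Of the 136 pseudogenes, 105 reached 1 FPKM in all 4 libraries and 8 in only 1. Just inside the threshold lay RPL39P36, with a highest level of 1.11 FPKM, RPS7P4 with 1.11 and RPS2P17 with 1.12. Just outside lay RPL23AP53 with 0.969, RPL7P47 with 0.963 and RPS12P4 with 0.885. The median level was 6.52 and 5.14 FPKM in WT and OE of HCT116 and 7.81 and 7.60 FPKM in WT and OE of RKO. Together the 136 copies made up 1.43% and 1.48% of all FPKM in HCT116 and 2.01% and 2.16% in RKO. The 8 copies with the highest means held 52.9% and 53.9% of that signal in HCT116 and 46.6% and 49.9% in RKO.

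Those 8 copies derive from both subunits. RPS28P7 stood at 621 and 642 FPKM in HCT116 and at 705 and 876 in RKO, and sets of 4 values below likewise give WT and OE of HCT116 and then WT and OE of RKO. RPS2P5, a copy of the small subunit gene RPS2, stood at 732, 676, 487 and 668 FPKM, highest in HCT116 WT and lowest in RKO WT. The other 6 were copies of large subunit genes and had lower levels. RPL3P4 stood at 335, 385, 477 and 505 FPKM, with both RKO libraries above both HCT116 libraries. RPL7P1 stood at 270, 286, 404 and 410 FPKM, with the lines ordered in the same way. RPL10P16 stood at 237, 281, 295 and 353 FPKM, highest in RKO OE. The last 3 had the lowest means of the 8. RPL41P1, a copy of the smallest ribosomal protein gene, stood at 243, 282, 273 and 236 FPKM, and its annotated length of 81 bases made its values rest on only 366 to 475 estimated fragments. RPL13AP5 stood at 186, 207, 255 and 315 FPKM. RPL18AP3 stood at 247, 256, 190 and 258 FPKM, lowest in RKO WT.

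Set against their parents, most copies were faint. The median level of a copy was 1.93%, 1.99%, 2.18% and 2.04% of its parent's FPKM in the 4 libraries. A copy reached the FPKM of its parent in at least 1 library in 7 cases. RPS28P7, RPL18AP3, RPL9P7 and RPS7P1 did so in all 4 libraries, RPL10P16 in all but HCT116 WT, RPL10P9 in the RKO libraries and RPL14P1 in all but RKO WT. RPS28P7 was 8.77, 8.96, 8.31 and 9.68 times as high per kilobase as RPS28, which stood at 70.9, 71.6, 84.8 and 90.5 FPKM. RPS7P1, a copy of the small subunit gene RPS7, stood at 124, 115, 161 and 160 FPKM, and RPS7 lay between 87.1 and 115 FPKM. RPL9P7, on the X chromosome, stood at 159, 200, 303 and 267 FPKM against 136, 146, 246 and 257 for RPL9.

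FPKM divides by length, and parents had longer annotated transcripts than their intronless copies, with a mean of 1024 bases for RPS28 against 210 for RPS28P7. In estimated fragments, which multiply FPKM by the mean length of a gene's annotated transcripts, 1 copy exceeded its parent. Which transcripts of a parent were present was not known, so its fragments depend on that mean length. RPS28P7 had 179.8%, 183.9%, 170.5% and 198.5% of the fragments of RPS28. RPL9P7 had 83.4%, 97.4%, 87.6% and 73.9% of those of RPL9, and RPS7P1 had 72.8%, 74.1%, 83.0% and 78.1% of those of RPS7.

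Summed over all named copies, pseudogenes held a large part of the estimated fragments of several families, which rest on the same mean lengths. They held 64.3%, 64.8%, 63.1% and 66.5% of the fragments listed for RPS28 and its copies, and 52.9%, 54.2%, 56.3% and 55.1% for RPS7. For RPL7, they held 45.7%, 49.3%, 49.8% and 51.1%, near an even split in 3 of the 4 libraries. For RPL10, the share was 37.2% and 39.7% in HCT116 WT and OE but 55.7% and 56.0% in RKO WT and OE. By contrast, pseudogenes held 6.29%, 8.60%, 5.44% and 6.46% of the RPS26 family and 6.85%, 6.44%, 6.94% and 5.29% of the RPL12 family.

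**Figure D1:**
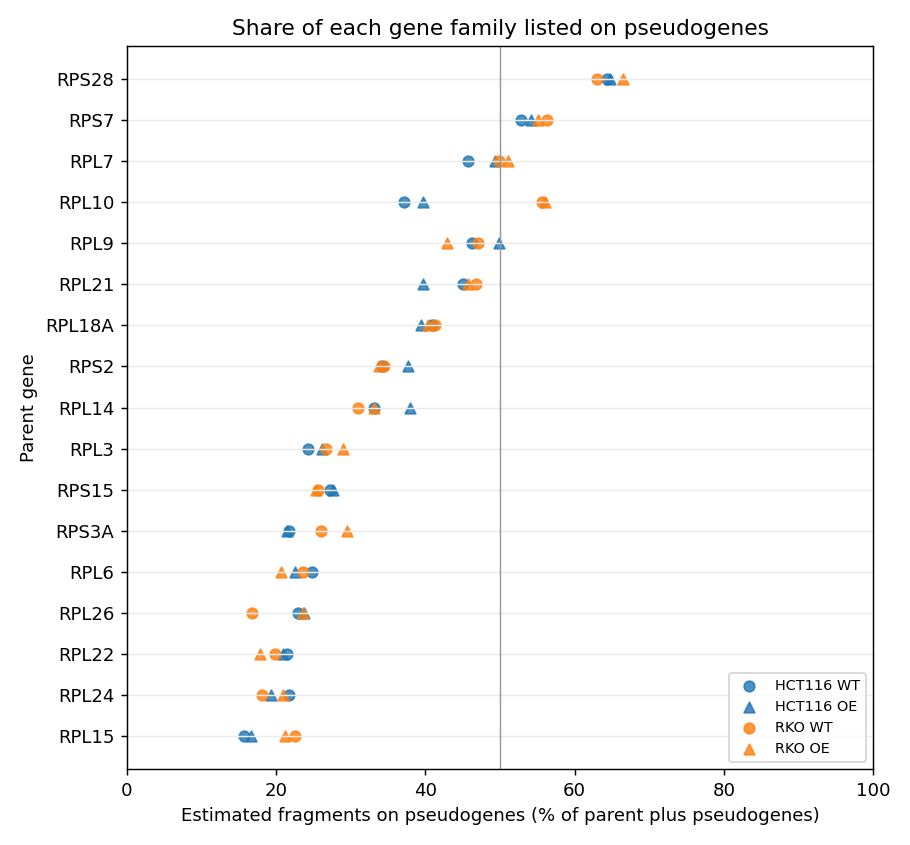
Share of each family's estimated fragments that is listed on named pseudogenes, in percent on the x axis, for families where it reached 20% in at least 1 library; colour gives the line, circles are WT and triangles OE, 1 library each. RPS28 and RPS7 lie above the line at 50% in all 4 libraries, and RPL10 lies at 37.2% and 39.7% in HCT116 and at 55.7% and 56.0% in RKO.

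Copies with signal had the higher median identity to their parents, a property that the selection did not use. Identity to the parent's transcripts had a median of 97.1% in the 136 copies and 87.7% in the 1009 copies below the threshold for which an alignment was found. At least 95% identity was found in 100 of 136 copies with signal and in 51 of 1009 below the threshold. Every one of the 27 copies at 99% identity or more had signal, with a median level of 69.1 FPKM. The share with signal was 44 of 50 between 97% and 99%, 29 of 74 between 95% and 97%, 28 of 340 between 90% and 95%, and 8 of 654 under 90%. In these 4 classes, the median levels of copies with signal were 18.2, 4.72, 1.53 and 2.85 FPKM.

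Among the 136 copies, higher levels went with higher identity, at a Spearman rho of 0.66 across genes, and rho was 0.69 over the 128 copies that share no exon with another gene. Between the level of a copy and that of its parent, rho was -0.03 across the same 136 genes. Copies of 1 family share a parent and all values share libraries, so these are descriptions across genes and not tests. A further description concerns exact copies: 5 copies matched their parent at every aligned base and ranged from 38.8 FPKM for RPL41P5, through RPL21P16, RPL39P3 and RPL41P1, to 711 FPKM for RPS28P7, as means of the 4 libraries.

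**Figure D2:**
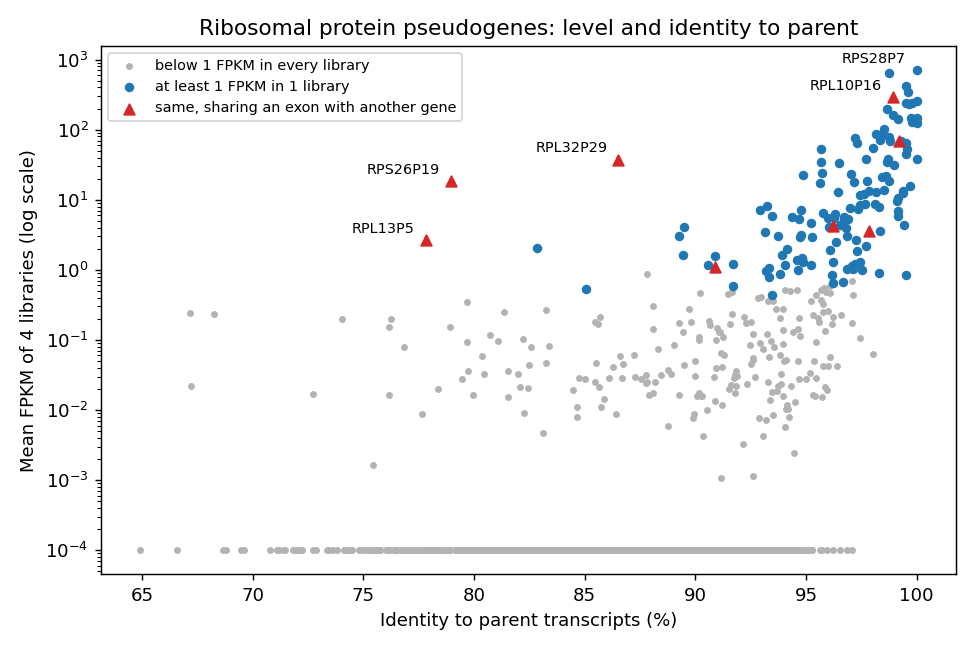
Mean FPKM of the 4 libraries (log scale, y axis) against percent identity to the parent's transcripts (x axis) for ribosomal protein pseudogenes; grey points are below the threshold, blue points are at 1 FPKM or more in at least 1 library, and red triangles are those of the latter that share at least 50 exon bases with another gene on the same strand. Levels climb towards full identity, while RPS26P19, RPL32P29 and RPL13P5 have signal at under 90% identity and share an exon.

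Many copies with signal also hold stretches that occur exactly in transcripts of other genes. A window of 100 bases was found exactly in a transcript of another gene in 105 of 134 copies with signal that are long enough, against 73 of 1015 below the threshold. An open reading frame of at least 90% of the parent's coding length remained in 50 of 136 copies with signal and in 51 of 1016 below it. No insertion or deletion against the parent's coding sequence was found in 69 of 136 and in 131 of 1016. How far shared sequence set the levels was not tested.

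Positions were compared in the same way. Of the 136 copies, 66 (48.5%) lay where no other gene is annotated, against 48.6% of those below the threshold. An exon shared with another gene on the same strand was found for 8 of 136 (5.88%) and 18 of 1016 (1.77%). These 8 are RPL10P16, RPL12P16, RPL32P29, RPS26P19, RPL9P25, RPS27AP5, RPL13P5 and RPL23AP1, and in each the shared bases lie outside annotated coding sequence of the other gene. Of the 8 copies under 90% identity, 3 belong to them. RPS26P19 lies whole, with 349 bases, in an exon of POLR2D, an RNA polymerase II subunit gene. RPL32P29 lies whole, with 403 bases, in an exon of RPS29, a small subunit gene, and RPL13P5 shares 561 bases with DSTNP2 and LRRC23. RPS27AP5 is typed as protein coding in the annotation.

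Between OE and WT most copies differed little. Differences are log2((OE + 1)/(WT + 1)) of FPKM, which understates changes of low genes, and a copy was counted as higher or lower when it differed at least 2-fold on that scale and averaged 1 FPKM or more in the line. A copy that passed that mean through only 1 of the libraries had to differ, so the counts describe these libraries. In HCT116, 5 of 118 copies were counted, 1 higher and 4 lower, where 2.05% of all genes were counted, 1.02% higher and 1.02% lower. In RKO, 6 of 126 were counted, 1 higher and 5 lower, where 3.25% of all genes were, 1.3% higher and 1.95% lower. The median difference of copies was -0.04 in HCT116 and -0.08 in RKO, beside 0.01 and -0.09 over all genes and -0.06 and -0.08 over processed pseudogenes of other families. In RKO, differences followed GC content across genes with a rho of 0.54 (n = 10971) and across copies with a rho of 0.24 (n = 123); in HCT116 these were -0.11 (n = 11305) and -0.10 (n = 123). The part of GC content in the values below was not tested.

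None of the 48 parents of copies with signal was counted. The 48 parents had median differences of 0.06 in HCT116 and 0.08 in RKO and ranged from -0.32 to 0.58 and from -0.71 to 0.79. Of 89 genes listed by name as cytosolic ribosomal protein genes, 1 of 85 in HCT116 and 1 of 84 in RKO were counted, both lower in OE. The gene counted in RKO was RPL7L1, at 28.6 FPKM in WT and 13.7 in OE. It is a further parent, whose 12 named copies all lay below the threshold. Between the differences of copies and those of their parents, rho was 0.11 in HCT116 and 0.10 in RKO across 123 copies. When a parent was summed with all its named copies, 0 of 48 families were counted in either line. The sums had medians of 0.05 in HCT116 and 0.08 in RKO. Copies held more fragments than the parent in any library in only 4 families. The sum therefore mostly follows the parent and says little about a single copy.

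**Figure D3:**
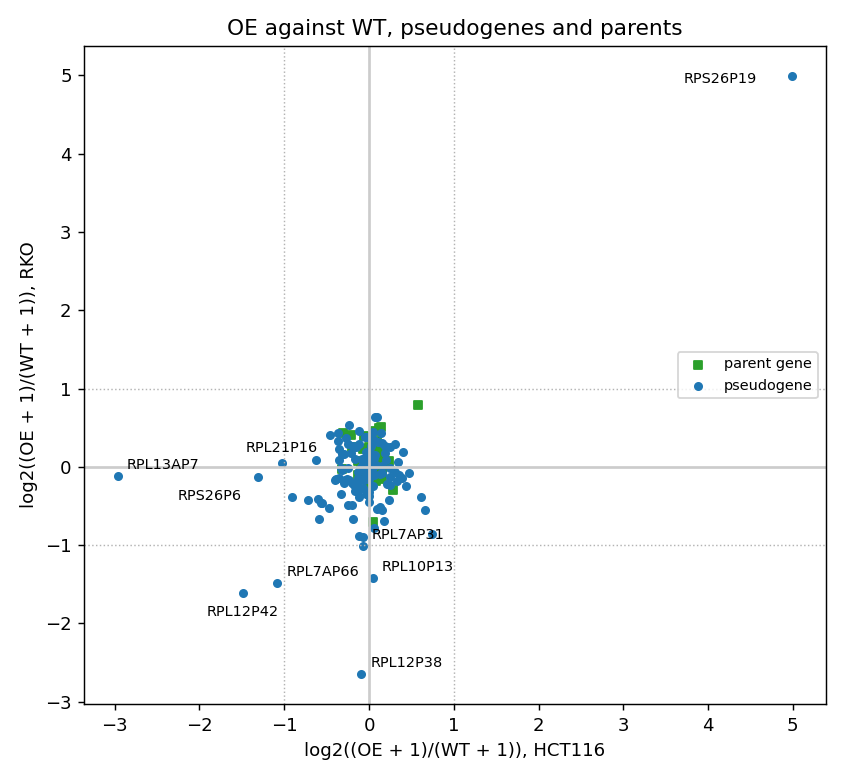
Difference between OE and WT on the log2(FPKM + 1) scale in HCT116 (x axis) and RKO (y axis) for the 136 pseudogenes (circles) and their 48 parents (squares); dotted lines mark a 2-fold difference, and names are given for copies counted in either line. RPS26P19 stands apart at 4.99 in both lines, and RPL12P42 lies past the HCT116 line but had a mean under 1 FPKM there.

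RPS26P19 was the copy with the highest difference in both lines. It stood at 0.192 FPKM in HCT116 WT and 36.8 in HCT116 OE, and at 0.180 in RKO WT and 36.6 in RKO OE, so that both OE libraries lay far above both WT libraries and close to each other. These levels stand for 1.25, 267, 1.29 and 251 estimated fragments. The ratio was 192-fold in HCT116 (95% counting interval 42.6 to 9501) and 203-fold in RKO (46.5 to 10374). Across lines, limma gave a log2 difference of 4.99 with a standard error of 0.24 and an adjusted p of 2.5e-07, higher in OE in 2 of 2 lines. RPS26P19 passed the choice of members and the filter on mean level only through its OE libraries, so this p describes values that also selected it and is no independent support. It was the only 1 of 123 tested copies past an adjusted p of 0.05, where 14 of 11525 genes (0.121%) were. The call was lost with limma without the line term, at an adjusted p of 0.245. Fits that left out any 1 of the 4 libraries also lacked the line term, so these changes were not told apart. In those fits the difference of RPS26P19 stayed at 4.98 or above. The authors' deposited table gave it p = 1 in both lines.

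The parent and the host of RPS26P19 had no counted difference. RPS26 stood at 280, 242, 306 and 406 FPKM, differing by -0.21 in HCT116 and 0.40 in RKO. POLR2D stood at 8.83, 9.50, 10.3 and 7.46 FPKM, differing by 0.10 and -0.41. The fragments of POLR2D and RPS26P19 summed to 356 and 693 in HCT116 WT and OE and to 456 and 567 in RKO WT and OE, so the sum was higher in OE in both lines. With 79.0% identity, RPS26P19 was the second most diverged of the 136 copies. Whether its fragments came from POLR2D transcripts was not tested.

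Next to RPS26P19, the more abundant copies of RPS26 had lower or similar levels in OE. RPS26P6, on chromosome 8, stood at 23.1, 8.76, 16.1 and 14.7 FPKM and was lower in HCT116 OE by 2.64-fold (1.96 to 3.62), with no counted difference in RKO. RPS26P8 stood at 9.97, 4.82, 7.23 and 5.30 FPKM, differing by -0.91 in HCT116 and -0.39 in RKO on the log2 scale, neither counted. RPS26P3 stood at 10.4, 8.62, 11.9 and 11.8 FPKM, with overlapping WT and OE levels. The authors' deposited table marked RPS26P6 as significant in HCT116, at p = 0.035. In HCT116 that table marked 254 of all 60612 genes (0.419%), a share with no filter on level, unlike those of counted genes.

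RPL7AP66 was the other copy counted in both lines, and it was lower in OE. It stood at 9.72, 4.06, 25.5 and 8.47 FPKM, a 2.39-fold difference in HCT116 (1.77 to 3.22) and a 3.01-fold difference in RKO (2.47 to 3.69). RPL7A stood at 869, 909, 1824 and 2177 FPKM, higher in OE by 0.07 and 0.25 on the log2 scale. Across lines, limma gave RPL7AP66 a log2 difference of -1.28 with a standard error of 0.24 and an adjusted p of 0.0986, which missed the threshold. The authors' deposited table marked RPL7AP66 as significant in RKO, at p = 0.0294. In RKO that table marked 341 of all 60612 genes (0.563%), again with no filter on level. RPL7AP31 stood at 2.25, 2.09, 6.58 and 2.76 FPKM and was lower in RKO OE by 2.39-fold (1.68 to 3.52). RPL7AP6 stood at 64.5, 64.9, 131 and 150 FPKM, with differences of 0.01 and 0.19 on the log2 scale.

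The remaining counted copies were lower in OE and were counted in 1 line only; the difference between the lines was not tested. RPL13AP7, a copy of the large subunit gene RPL13A, stood at 7.21, 0.0530, 7.39 and 6.72 FPKM, so that HCT116 OE alone was near 0. With 0.672 estimated fragments there, it was lower by 136-fold with a counting interval of 15.9 to 3652. RPL12P38 stood at 3.67, 3.38, 5.52 and 0.0383 FPKM, so that RKO OE alone was near 0, at 1.06 estimated fragments. It was lower there by 144-fold, with a counting interval of 27.0 to 6062. Their parents were at 785 FPKM or more for RPL13A and at 700 FPKM or more for RPL12 in the 4 libraries.

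RPL12P42 stood at 1.81 FPKM in HCT116 WT and 2.05 in RKO WT and was listed at 0.0001 in both OE libraries. Its WT levels stand for 16.8 and 20.9 estimated fragments, and it was counted in RKO, while its HCT116 mean fell short of 1 FPKM. RPL21P16, which matches RPL21 at every aligned base, stood at 107, 52.0, 166 and 172 FPKM and was lower in HCT116 OE by 2.05-fold (1.84 to 2.29). RPL21 itself stood at 250, 248, 328 and 298 FPKM, and RPL21P75 at 117, 129, 158 and 110 FPKM. RPL10P13 stood at 3.73, 3.87, 15.8 and 5.27 FPKM and differed by -1.42 on the log2 scale in RKO. The authors' deposited table marked RPL10P13 in RKO, at p = 0.0336.

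Smaller differences at the ends of the ranking were not counted. On the low side, RPL23AP64 differed by -0.90 in RKO on the log2 scale. In HCT116, RPL23AP1 at 0.720 and 1.89 FPKM, RPL32P29 at 37.2 and 59.6, RPL5P4 at 2.36 and 3.66, RPS27AP5 at 2.17 and 3.29 and RPL29P33 at 0.0001 and 0.525 followed RPS26P19 on the high side. In RKO, RPL13P12 at 92.8 and 145 FPKM, RPL17P36 at 0.705 and 1.47, RPS2P5 at 487 and 668 and RPL18AP3 at 190 and 258 did so, as did RPS28P4 with a log2 difference of 0.64. At an unadjusted p under 0.05, limma found 9 of 123 pseudogenes, beside 3.51% of all genes tested.

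**Figure D4:**
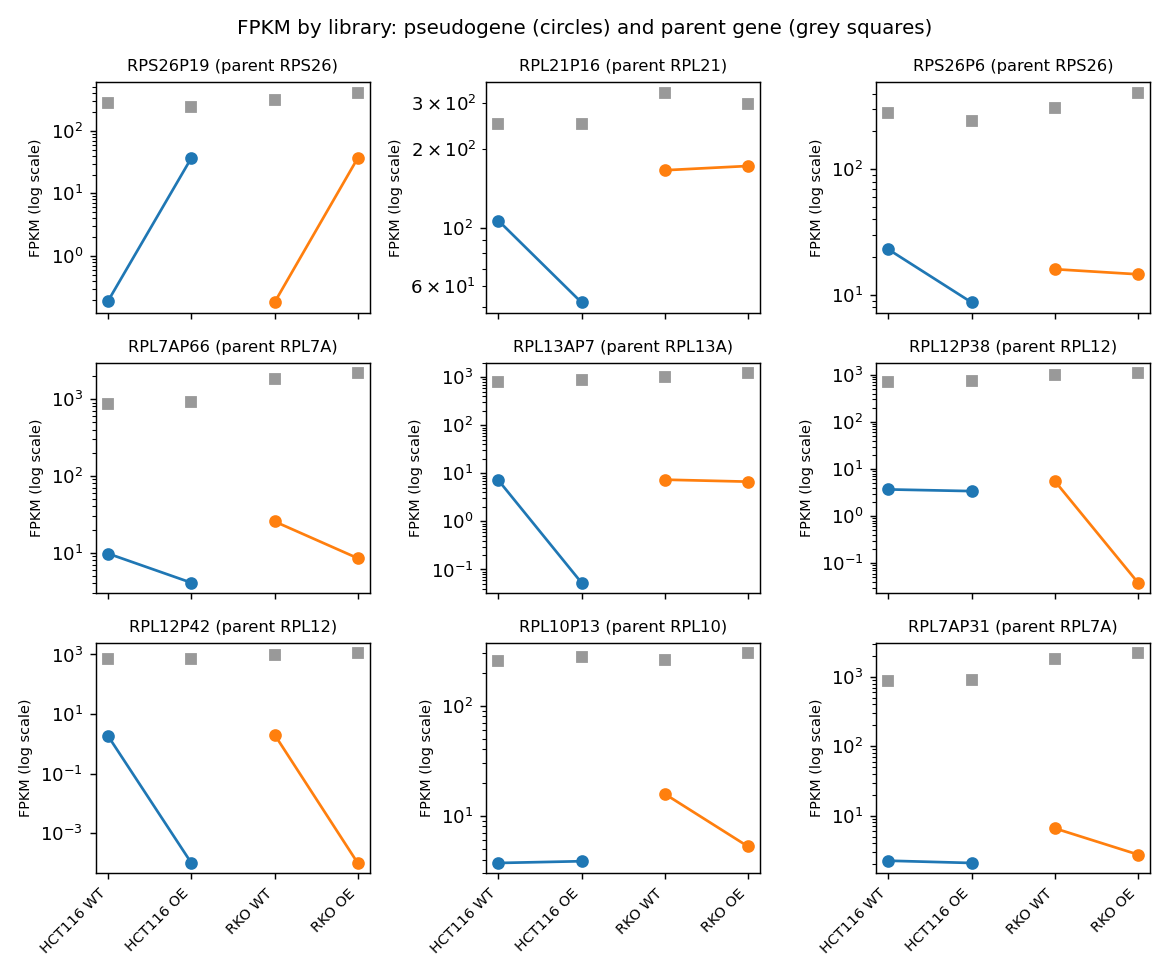
FPKM in each library (log scale) for the 8 further copies counted in either line and for RPS26P19, with circles for the copy, joined within a line, and grey squares for its parent; scales differ between panels and 0.0001 is the value listed for no signal. RPS26P19 rises from 0.192 to 36.8 FPKM and from 0.180 to 36.6 FPKM, while the parents' squares differ by less than 2-fold within each line.

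Between the lines, a smaller share of copies than of all genes was counted, and most of the counted copies were higher in RKO. The lines come from separate tables, so these levels are set side by side with no test. Of the 136 copies, 118 and 115 reached 1 FPKM in HCT116 WT and OE, and 128 and 123 in RKO WT and OE. A copy that reached 1 FPKM in 1 line only, such as RPL29P12 in RKO, could only be counted as higher in that line. The counts therefore describe these libraries. In WT libraries 12 of 125 copies (9.6%) differed at least 2-fold, 11 higher and 1 lower in RKO. Of all genes, 20.3% differed, 10.7% higher and 9.55% lower in RKO. In OE libraries 15 of 121 copies (12.4%) differed, 12 higher and 3 lower in RKO. Of all genes, 21.3% differed, 9.99% higher and 11.3% lower in RKO. The median difference of copies was 0.38 in WT and 0.37 in OE, near the parents' 0.33 and 0.34, beside 0.14 and 0.02 over all genes. Of at most 121 copies that averaged 1 FPKM in both pairs, 6 were counted in both, all higher in RKO. These were RPL10P9, RPL10P6, RPL7AP6, RPL7AP50, RPL35P1 and RPL29P12. Of 11107 genes, 13.8% were counted in both pairs in the same direction, either higher or lower in RKO.

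On the log2(FPKM + 1) scale RPL10P9 had the largest difference of the copies in both pairs, at 3.31 and 3.09. It stood at 26.9 and 36.0 FPKM in HCT116 WT and OE and at 276 and 315 in RKO WT and OE, so that the lines were far apart and the genotypes close. RKO was higher by 10.2-fold in WT (9.15 to 11.5) and by 8.75-fold in OE (7.96 to 9.65). RPL10 stood at 254, 274, 262 and 299 FPKM and so was nearly level between the lines. RPL10P6 stood at 3.05, 2.88, 15.3 and 13.5 FPKM, a 5.03-fold difference in WT (3.04 to 8.87). RPL10P16, with the same identity to RPL10 as RPL10P9, at 98.9%, differed by 0.31 and 0.33 on the log2 scale. These are the copies whose sequences differ from RPL10 at 3 or fewer of 120 bases above.

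For the RPL7A and RPL35 copies, the parent differed between the lines as well. RPL7AP6 was higher in RKO by 2.03-fold in WT (1.88 to 2.20) and 2.31-fold in OE (2.15 to 2.48), and RPL7A differed by 1.07 and 1.26 on the log2 scale. RPL35P1, a copy of a large subunit gene, stood at 22.8, 20.1, 53.7 and 43.3 FPKM, and RPL35 at 409, 355, 812 and 969. RPL29P12 stood at 0.110, 0.128, 2.77 and 2.50 FPKM with 0.957 and 1.24 estimated fragments in HCT116, which gives a ratio of 25.1 in WT with a counting interval of 3.89 to 970.

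**Figure D5:**
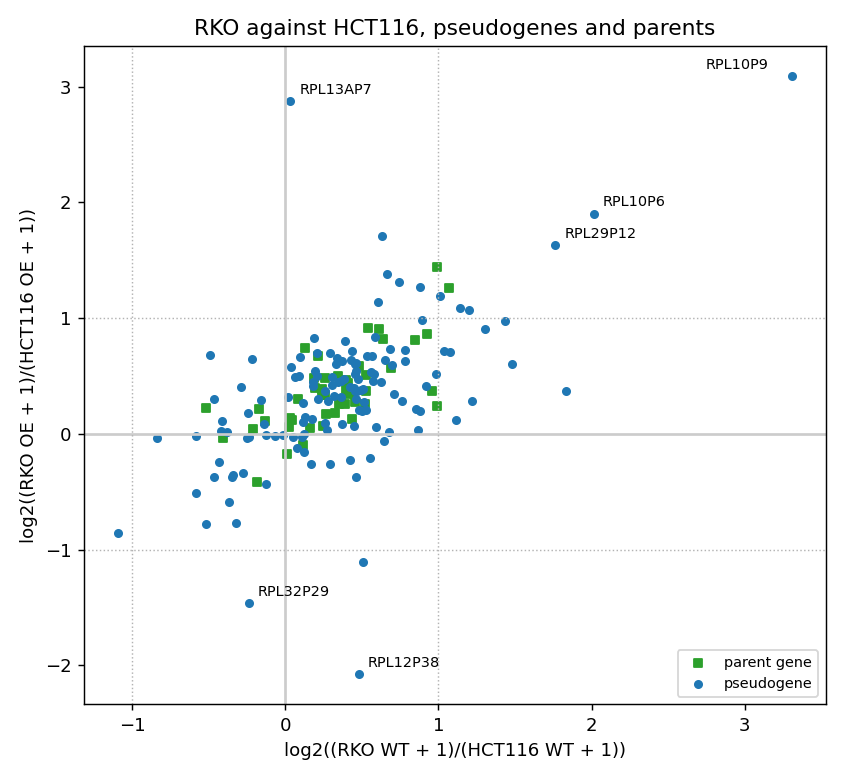
Difference between RKO and HCT116 on the log2(FPKM + 1) scale in WT libraries (x axis) and OE libraries (y axis) for the 136 pseudogenes (circles) and 48 parents (squares); dotted lines mark a 2-fold difference. RPL10P9 lies at 3.31 and 3.09, while RPL13AP7 and RPL12P38 lie far from 0 in the OE libraries only.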

How the data were processed

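The authors' deposited tables, 1 per line, give FPKM values per gene and library with 0.0001 for no signal, and the authors' own fold (a ratio), log2 fold, p-value and q-value. Per the submitters' processing notes, Bowtie 0.12.2, HISAT2 2.0, StringTie 1.3.0 and a mouse build were named; since identifiers in the tables are human, the build is unsettled. The sources used here do not give how fragments matching several genes were assigned or whether strand was kept. Groups came from sample titles. The members and lists were chosen with earlier results of these data known.

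Sequences, positions and lengths came from GENCODE 29 on GRCh38, in which 10 of the 136 pseudogenes have another name; identity was measured with BLAST 2.17.0. Fragments were estimated as FPKM times mean transcript length over the value of 1 fragment, which on 1 kilobase was 0.0537 and 0.0482 FPKM in HCT116 (WT, OE) and 0.0488 and 0.0509 in RKO. A count of 0 allows up to 3 fragments, or 0.322, 0.289, 0.293 and 0.305 FPKM on 500 bases in that order. Counting intervals are exact (Clopper-Pearson) at 95%, cover counting error only and treat fragments as independent molecules, although they carry no molecular identifiers.

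Within a line there is no test. For OE against WT over both lines, limma 3.58.1 (R 4.3.3) modelled log2(FPKM + 1) of the 11525 genes averaging 1 FPKM or more, with line as a term, a trended prior, 1 residual degree of freedom and a median of 12.0 prior ones, two-sided with Benjamini-Hochberg adjustment. The labels do not say whether cultures were separate, so p-values concern the spread between these samples. Named were the 8 highest copies, copies at or above their parent, the 6 highest and 6 lowest differences per line, limma calls, copies at the threshold, and parents; others were named after their values were seen.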

Additional observations from a re-analysis of the deposited data

Results flagged for a closer look

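The differences of 5 copies between OE and WT ran in opposite directions in the 2 lines, each by more than the counting error of its estimated fragments. The difference between the lines was not tested, since each group has 1 library. On the log2(FPKM + 1) scale, RPL23AP1 differed by 0.75 in HCT116 and -0.86 in RKO, and RPL32P29 by 0.67 and -0.56. RPL41P1 differed by 0.22 and -0.21 and RPL9P7 by 0.33 and -0.18. RPS2P5 differed by -0.11 in HCT116 and 0.45 in RKO, and its parent RPS2 by -0.31 and 0.43. RPL23AP1 rests on 3.19 to 18.5 estimated fragments.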

How the results depend on the processing

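The labels give no replicate numbers, and the fit across lines takes line as its block. In HCT116, where 5 copies were counted, rescaling to TPM gave 8, the authors' mark (from the authors' deposited table) gave 1, and summing each copy with its family 0. In RKO, where 6 were counted, TPM gave 10, a mean of at least 5 FPKM gave 3, the authors' mark 2 and the family sum 0. Adding 0.1 in place of 1 to the FPKM gave 7 in HCT116 and 9 in RKO. The family sum mostly follows the parent, so a change of sign in it says only that family and copy differed in direction. Values in brackets below are those of the family. Of 62 differences of named copies, 25 changed sign in the family sum, 17 of them not counted to begin with. Among counted copies, those of RPL13AP7 (0.16), RPL7AP66 (0.047) and RPS26P19 (-0.17) in HCT116 did so, and in RKO those of RPL10P13 (0.20), RPL12P38 (0.13), RPL12P42 (0.13), RPL7AP31 (0.23) and RPL7AP66 (0.23). Across lines, limma found 1 copy, and 5 with no filter on low values, a fit whose prior was infinite and is unreliable. With no line block it found 0, with 1 copy and 36 genes at an unadjusted p under 0.05, and without each library in turn, also with no block, from 0 to 0, with 1 to 4 copies at an unadjusted p under 0.05. RPS26P19 kept a difference of at least 4.98 in these leave-one-out fits. In estimated fragments 1 copy exceeded its parent, against 7 in FPKM. Windows of 150 bases were found elsewhere in 60 copies, against 105 for 100 bases, and 15 shared at least 1 exon base on either strand, against 8. The causes of these changes were not tested. The median RKO difference of all genes was -0.09, and -0.13 and -0.12 after rescaling without mitochondrial genes and to TPM. Without copies that share exons (chosen after seeing the data), 4 and 5 were counted in HCT116 and RKO. Within a line, with 1 library per group, counting error is the only error that could be given.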
